A study of Mus musculus with 35 samples.

Results

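The genes described here encode the matrix metalloproteinases (Mmp), the ADAMTS proteases (Adamts) and the tissue inhibitors of metalloproteinases (Timp). They were chosen by name, as every array probe whose gene name is Mmp, Timp or Adamts followed by its number, which gave 42 of the 27962 gene names on the array, with 73 of its 41174 gene probes. Of these, 21 genes with 28 probes were Mmp genes, 4 genes with 6 probes were Timp genes and 17 genes with 39 probes were Adamts genes.

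Matrix metalloproteinases are zinc-dependent enzymes that cut collagens, proteoglycans and other proteins of the extracellular matrix. Some are secreted as inactive precursors and others are held at the cell surface by a membrane anchor. The ADAMTS enzymes are secreted relatives that cut proteoglycans such as aggrecan and versican or trim procollagen. Timp proteins bind the active site of metalloproteinases and block them, and the balance of the proteases and these inhibitors sets how fast fibroblasts and bone cells turn over their matrix.

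Expression was measured on Agilent 1-color mouse arrays in 35 samples. The source cells came from 6-week-old mice that carry Nanog-GFP with a puromycin resistance gene. PaS cells were bone marrow mesenchymal stem cells sorted as CD45-Ter119-PDGFRa+Sca-1+, OP cells were bone marrow osteoprogenitors sorted as CD45-Ter119-PDGFRa-Sca-1-, and TTF cells were tail tip fibroblasts, used at passage 3 for induction. Induced pluripotent stem (iPS) cells were made from each source with retroviral Oct3/4, Sox2 and Klf4 (3 factors, 3F) or with the same genes plus c-Myc (4 factors, 4F). Retroviral DsRed was given to all of them, and clones that were GFP-positive, DsRed-negative and puromycin-selected were kept on SNL feeder cells, a fibroblast line, in medium with LIF. Each of the 6 clone groups held 5 clones with 1 array per clone. The other arrays were the embryonic stem (ES) cell lines EB-3 and RF8, which form a group of 2, and 1 array for each of the primary PaS, OP and TTF cells. Clones of a group may come from 1 culture of source cells, since nothing says otherwise, so p-values measure the spread between clones.

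Levels are log2 of the array signal relative to the 75th percentile of the same array, so that 0 is that percentile. They may be compared between samples for 1 probe, not between probes. Where a gene had several probes, the brightest one stands for the gene. A probe was tested only if all arrays of 1 or more of the groups gave a signal well above background, which held for 47 member probes of 31 genes and for 27623 probes in all. A difference was called when the limma test gave a Benjamini-Hochberg adjusted p under 0.05 over all probes tested and the change was at least 2-fold. In bulk RNA, fewer cells of a type and less RNA per cell cannot be told apart.

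All 30 clones were scanned in 1 session, on 8 slides. Within a source, 3F and 4F clones never shared a slide, so no within-slide value of 3F against 4F exists, and a fit with the slide as a fixed block was possible for TTF-iPS but not for PaS-iPS or OP-iPS, where factor number and slide cannot be told apart. EB-3 and the 3 primary samples shared 1 slide in the second session, and RF8 was alone in the third, so differences of the clones from ES or primary cells and differences between sessions cannot be told apart. In 3 clones Sox2 and Nanog were low. Sox2 and Nanog stood at -8.09 and -6.13 in 4F OP-iPS clone 1, at -8.21 and -8.24 in 4F OP-iPS clone 3, and at -5.27 and -6.06 in 4F TTF-iPS clone 1, while in the other 27 clones Sox2 was at least -2.04 and Nanog at least -3.30. The counts of 3F against 4F are given with and without them. Over 9 pluripotency markers the mean log2 level was -3.74 to 2.92 in the clones, 4.43 in EB-3, 2.73 in RF8 and -8.31 to -7.13 in the primary samples. The primary TTF array also carried macrophage transcripts, with all 10 of 10 monocyte and macrophage markers above background.

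Most of the proteases and inhibitors could be measured in the clones. The main probe of 20 genes was above background in all 30 clones, that of 17 genes in some of them, and that of 5 genes in none. The first set held Timp1, Timp2, Timp3, the gelatinases Mmp2 and Mmp9, the stromelysins Mmp3, Mmp10 and Mmp11, the membrane-anchored Mmp14, Mmp15, Mmp17 and Mmp23, Mmp19, and Adamts1, Adamts4, Adamts5, Adamts7, Adamts9, Adamts10 and Adamts15. The genes below background in every clone were Mmp8, the collagenase of neutrophils, Mmp12, the elastase of macrophages, Mmp20, the enamel protease, Adamts13, which cuts von Willebrand factor, and Adamts19. Adamts13 and Mmp20 were above background on none of the 35 arrays.

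**Figure D1:**
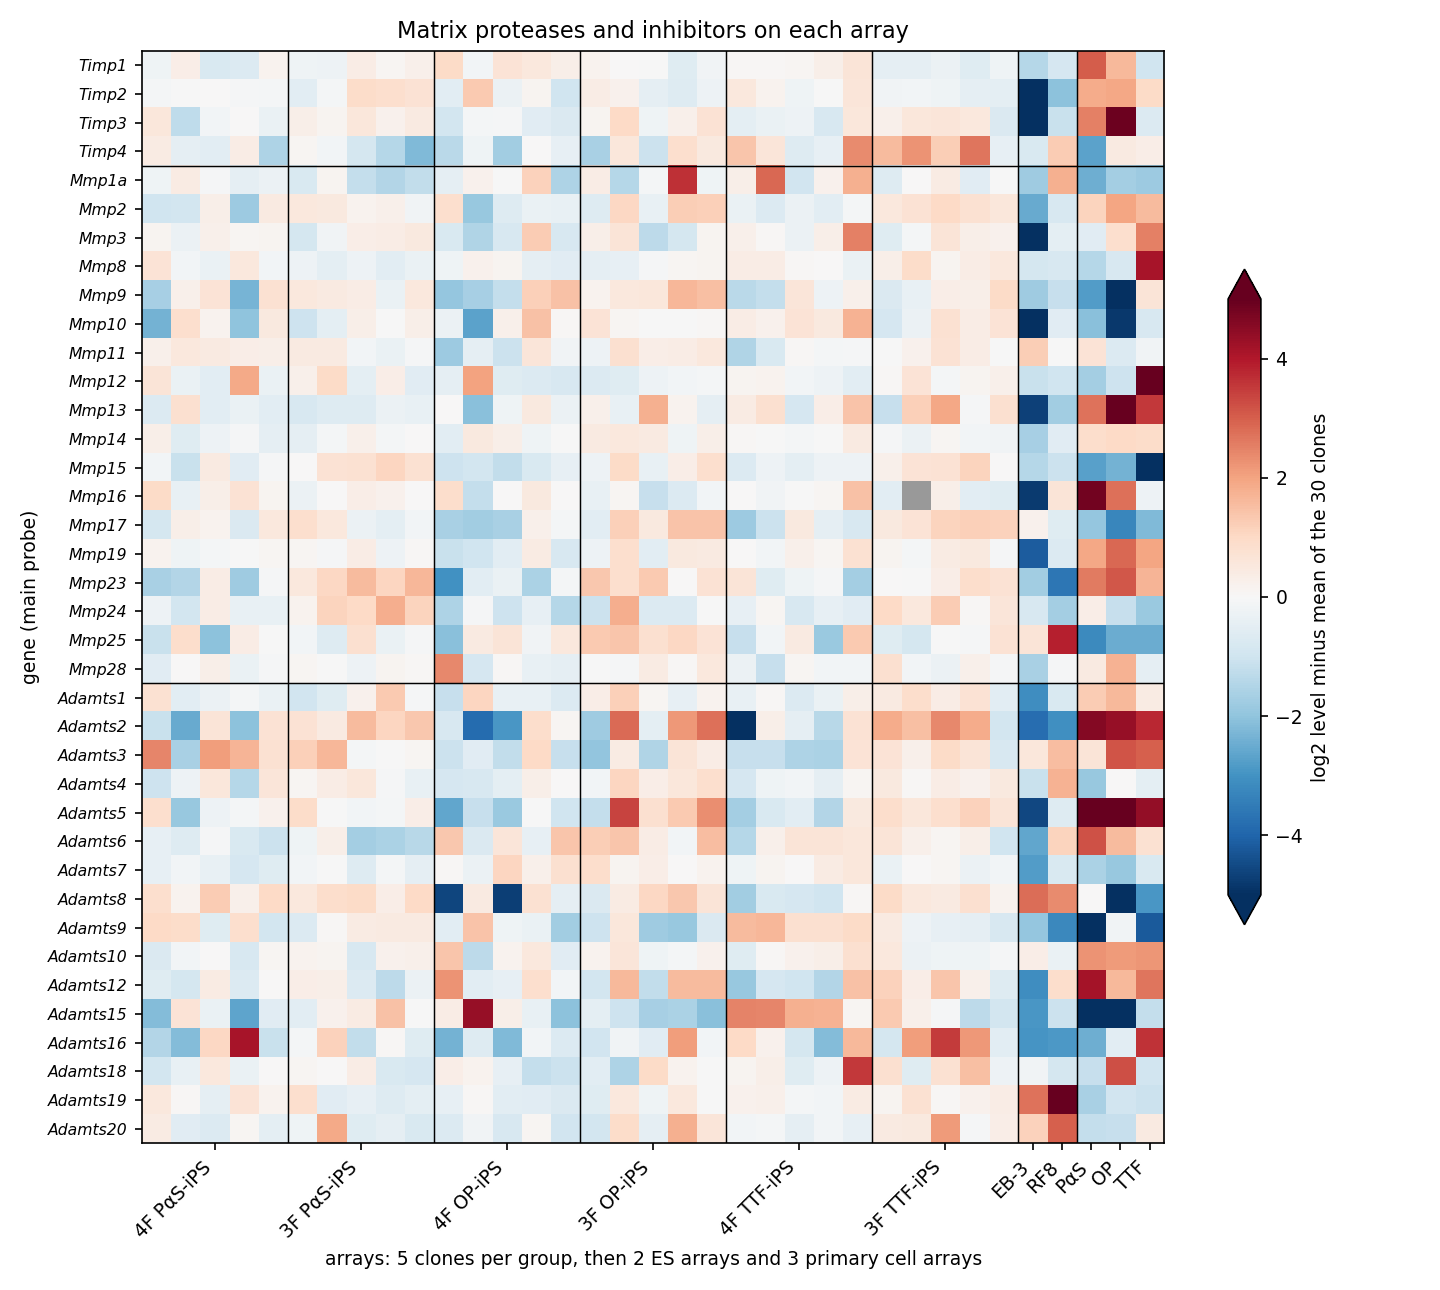
Log2 level of member genes (rows, main probe; genes above background on at least 1 ES or primary array or in nearly all clones) on each array (columns), shown as the difference from the mean of the 30 clones; the color scale is in log2 units and the grey cell is 1 array whose Mmp16 spots were flagged. EB-3 is low for Mmp3, Timp2 and Timp3, and the primary arrays stand high for Adamts2 and Adamts5.

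The inhibitors Timp1, Timp2 and Timp3 were measured in every sample. Timp2, which blocks metalloproteinases and also helps Mmp14 to activate the precursor of Mmp2, ran from 4.98 to 7.29 over the clones with a median of 5.90. It was at -1.97 in EB-3, 3.96 in RF8, 7.85 in primary PaS cells, 7.94 in primary OP cells and 6.96 in primary TTF cells. Both ES arrays lay below every clone, and the 3 primary arrays lay above the clones of their own source. Timp3, the inhibitor that stays bound to the matrix, ran from 2.24 to 4.52 over the clones with a median of 3.59. It was at -2.22 in EB-3 and 2.41 in RF8, so that EB-3 was below all clones and RF8 inside their range. Its levels of 6.02 in primary PaS and 8.40 in primary OP cells exceeded all their clones, whereas 2.83 in primary TTF cells did not. Timp1, a secreted inhibitor, ran from 4.31 to 6.01 over the clones with a median of 5.09. It was at 3.65 in EB-3 and 4.23 in RF8, both below every clone. Timp4 was above background in 24 clones, including all 10 TTF-iPS clones, 8 PaS-iPS clones and 6 OP-iPS clones, with a range from -6.56 to -1.68.

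The protease partners of these inhibitors differed in how much they varied between clones. Mmp14, the membrane-anchored collagenase that activates Mmp2, varied least among the genes measured in all clones, with a mean of 3.71 ± 0.31 (SD, n = 30) and a range of 3.11 to 4.25. Mmp2, a gelatinase, had a mean of 1.81 ± 0.81 and ran from -0.06 to 3.05. Adamts2, which trims the amino-terminal end of fibrillar procollagens, had a mean of -0.59 ± 2.02 and ran from -6.25 in 4F TTF-iPS clone 1, where it was below background, to 2.24 in 3F OP-iPS clone 2. Adamts15, a proteoglycan-cutting enzyme, had a mean of 1.00 ± 1.58 and reached 5.34 in 4F OP-iPS clone 2. Mmp14 thus spanned about 1 log2 unit over all clones while Adamts2 and Adamts15 spanned several.

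**Figure D2:**
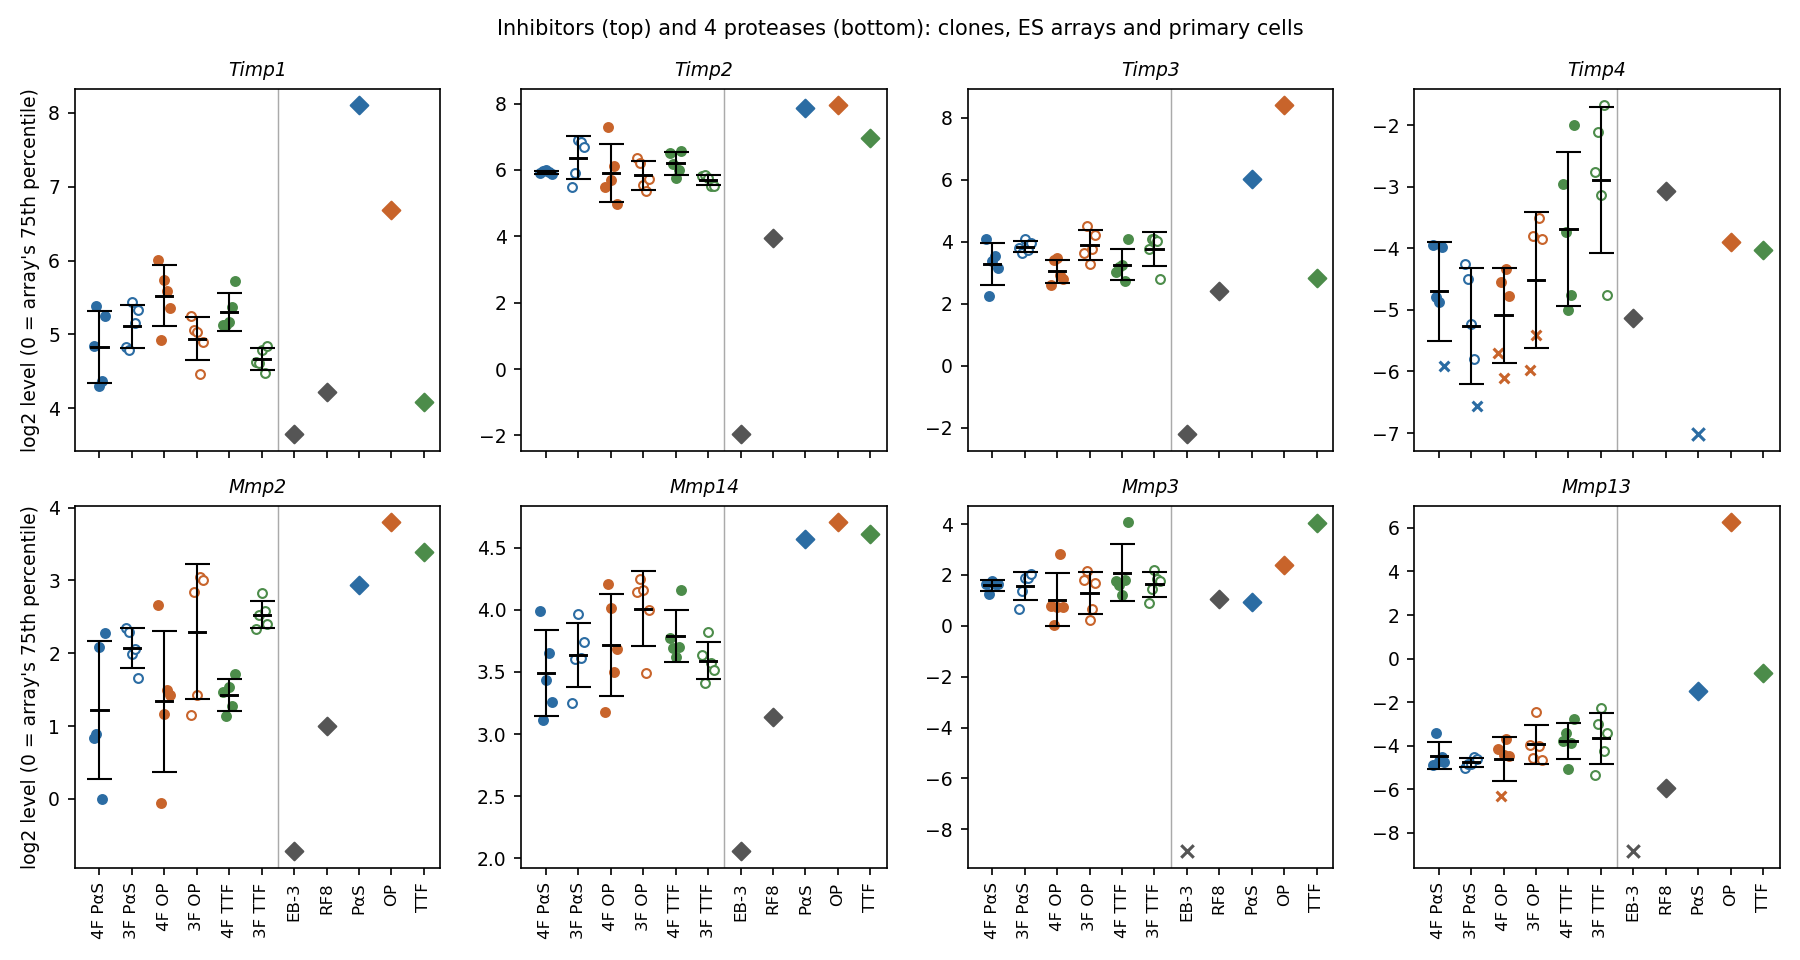
Log2 level (0 is the 75th percentile of the array) of 4 inhibitors in the upper row and 4 proteases in the lower row, by clone group, ES array and primary sample; points are single arrays, bars are the group mean ± SD (n = 5 clones), and crosses are arrays where the probe was not well above background. Timp2 and Timp3 are lowest in EB-3, Mmp3 and Mmp13 are not above background there, and Mmp13 is highest in primary OP cells.

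Of the Mmp genes, 8 lie in a cluster on chromosome 9. In the order of their probes these were Mmp13, Mmp12, Mmp3, Mmp1a, Mmp10, Mmp8, Mmp20 and Mmp7, from 7280046 to 7695493 in mouse build mm7. Neighbors were measured in very different numbers of clones. Mmp3 and Mmp10 were above background in 30 of 30 clones and the collagenase Mmp13 in 29, whereas the collagenase Mmp1a was above background in 4, Mmp7 in 1, and Mmp12, Mmp8 and Mmp20 in 0. EB-3 had none of the 8 above background and the primary TTF cells had 5.

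**Figure D3:**
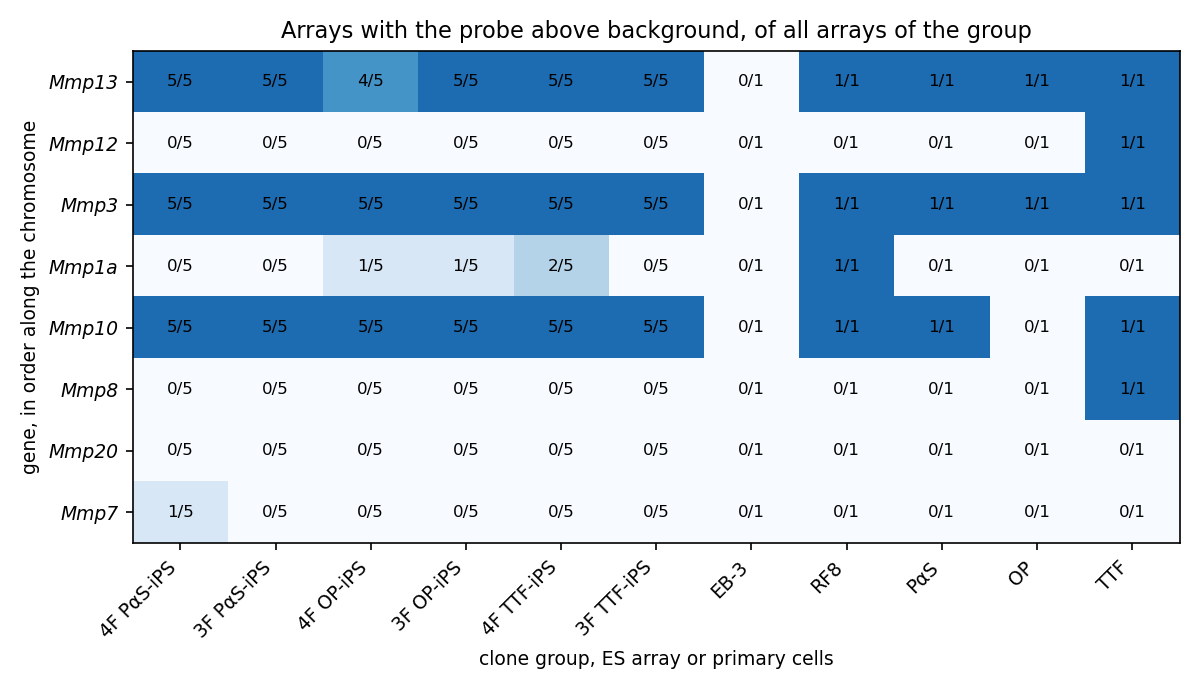
Number of arrays on which the probe was well above background, out of all arrays of the group, for the 8 Mmp genes of the chromosome 9 cluster in their order along the chromosome (rows) and for each clone group, ES array and primary sample (columns). Mmp3 and Mmp10 are above background in all clones, EB-3 has none of the 8, and Mmp12 and Mmp8 are above background in primary TTF cells alone.

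The promoters of the 3 cluster genes measured in nearly all clones are shown because the same genes were not above background in EB-3. Each run is 300 bases from RefSeq, build GRCm38.p6, plus strand, from 250 bases before the transcription start to 50 from it, at chr9:7445572-7445871 for Mmp3, chr9:7502092-7502391 for Mmp10 and chr9:7272264-7272563 for Mmp13. Capitals mark a match to the AP-1 motif, TGACTCA or TGAGTCA, and to TATAAA.
Mmp3: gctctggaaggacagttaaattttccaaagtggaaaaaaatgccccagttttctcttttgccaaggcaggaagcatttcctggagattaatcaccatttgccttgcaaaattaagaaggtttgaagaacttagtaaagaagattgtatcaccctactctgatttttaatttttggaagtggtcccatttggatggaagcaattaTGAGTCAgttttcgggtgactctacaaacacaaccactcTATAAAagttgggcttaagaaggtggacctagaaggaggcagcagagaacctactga
Mmp10: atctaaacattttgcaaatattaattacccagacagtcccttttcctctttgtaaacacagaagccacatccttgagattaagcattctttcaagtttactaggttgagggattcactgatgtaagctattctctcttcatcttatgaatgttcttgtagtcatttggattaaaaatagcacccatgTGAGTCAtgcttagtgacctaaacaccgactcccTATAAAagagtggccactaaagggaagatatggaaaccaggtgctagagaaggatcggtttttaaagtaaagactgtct
Mmp13: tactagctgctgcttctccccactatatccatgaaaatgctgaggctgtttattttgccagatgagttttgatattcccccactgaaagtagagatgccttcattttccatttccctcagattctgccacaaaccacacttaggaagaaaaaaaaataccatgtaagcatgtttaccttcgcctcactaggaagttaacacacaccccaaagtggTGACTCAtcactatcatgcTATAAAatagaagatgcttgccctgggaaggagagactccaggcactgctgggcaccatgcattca
The AP-1 letters began 46 bases before the start in Mmp3, 63 in Mmp10 and 35 in Mmp13, and TATAAA began 7, 29 and 16 bases before it. A promoter row existed for 28 of the 42 genes, with 31 windows. The AP-1 motif, read on both strands, was in 6 of these windows (19.4%) and in 5.2% of all 32851 windows. All 6 belonged to the cluster, namely Mmp3, Mmp10, Mmp13, Mmp12, Mmp1a and Mmp7. TATAAA was in 32.3% of member windows and 13.6% of all windows, and cannot overlap the AP-1 letters. The letters AGGAAG, an ETS core, were in 48.4% and 35.4%. Genes with the AP-1 letters thus included Mmp3, measured in all clones, and Mmp12, measured in none.

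The design asks whether leaving out c-Myc changes the clones. By the methods, puromycin selection began later after infection for 3F than for 4F cells, so factor number and time of selection cannot be told apart. In OP-iPS clones, 4 of 31 genes tested were higher with 3F than with 4F and none was lower. These were the membrane-anchored Mmp15, Mmp17 and Mmp23 and the aggrecan-cutting Adamts5. By probe, 5 of 47 were called higher and 0 lower, beside 3.94% of all probes called higher and 0.576% called lower. The median log2 difference of the member probes was 0.58, and that of all probes tested 0.02. Each of the 4 genes is given with its clone levels, 3F first.

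Mmp23, a small protease without the hemopexin domain of most relatives, was at 1.78, 1.29, 1.75, 0.45 and 1.16 in the 3F OP-iPS clones and at -2.57, -0.07, 0.09, -1.15 and 0.36 in the 4F ones, with no overlap, as for 5.0% of all probes in this source. The log2 difference was 1.96 ± 0.50 (SE, limma adjusted p = 0.0185). Mmp15, a transmembrane protease, was at -1.35, -0.16, -1.47, -0.78 and -0.27 against -2.12, -2.0, -2.31, -1.85 and -1.49, again with every 3F clone above every 4F clone. The log2 difference was 1.15 ± 0.27 (SE, limma adjusted p = 0.0123). Mmp17, held by a lipid anchor, was at -0.12, 1.58, 0.90, 1.84 and 1.84 against -1.23, -1.34, -1.24, 0.67 and 0.28, so that the groups overlapped through 1 low 3F clone and 2 high 4F clones. The log2 difference was 1.78 ± 0.44 (SE, limma adjusted p = 0.0156). Its other probe gave 1.83. Adamts5, an aggrecanase of cartilage, was at -2.62, 1.97, -0.62, -0.10 and 0.93 against -4.0, -2.57, -3.27, -1.44 and -2.42, with an overlap set by the lowest 3F clone. The log2 difference was 2.65 ± 0.68 (SE, limma adjusted p = 0.0183).

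These OP-iPS calls were lost under several other choices. Without the 3 clones low in Sox2 and Nanog, 2 of which are 4F OP-iPS clones, 0 of the member probes were called. The differences then were 1.58 for Mmp23, 0.98 for Mmp15, 1.34 for Mmp17 and 2.06 for Adamts5, with adjusted p from 0.121 to 0.191. The count was also 0 in a fit of the OP-iPS groups alone, with the same differences and adjusted p from 0.106 to 0.146, and with the slide as a random block, where the differences were 2.25 for Mmp23, 1.13 for Mmp15, 2.12 for Mmp17 and 2.43 for Adamts5, with adjusted p from 0.0676 to 0.159. Leaving out 1 clone gave 1 call without 4F OP-iPS clone 1, 2 calls without 3F OP-iPS clone 2 or clone 5, 9 calls without 3F OP-iPS clone 1 and 10 calls without 4F OP-iPS clone 4.

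In TTF-iPS clones the one gene whose main probe was called was Mmp17. Its levels were 0.87, 1.09, 1.5, 1.59 and 1.55 with 3F and -1.40, -0.69, 0.90, -0.05 and -0.42 with 4F. The groups overlapped through 1 clone on each side. The log2 difference was 1.65 ± 0.44 (SE, limma adjusted p = 0.0185). By probe, 3 of 47 were called higher and 0 lower, both probes of Mmp17 and 1 of the weaker probes of Adamts2, beside 3.97% of all probes higher and 1.81% lower. The weaker Adamts2 probes passed the filter on dim probes only through the 3F PaS-iPS clones or the ES arrays. They were below background in most 4F TTF-iPS clones, so that this call is no further support. The 3 calls became 0 with the slide as a fixed or a random block, 0 without 4F TTF-iPS clone 1 or clone 2, 1 without 3F TTF-iPS clone 3 or clone 4, 5 without 3F OP-iPS clone 2, 6 without 4F OP-iPS clone 2, and 11 in a fit of the TTF-iPS groups alone. Without the 3 clones low in Sox2 and Nanog 2 member probes were called. For Mmp17 itself the difference was 1.39 with an adjusted p of 0.0619 without them. With the slide as a random block the Mmp17 difference was 1.56 (limma adjusted p = 0.352), and with the slide as a fixed block 1.18.

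In PaS-iPS clones 0 of the 47 member probes were called higher and 0 lower by limma, beside 0.00724% and 0.0109% of all probes, and 7 of 47 had an unadjusted p under 0.05, beside 17.3% of all probes. The count was also 0 without the 3 clones low in Sox2 and Nanog. Mmp23 was at 0.94, 1.47, 2.00, 1.53 and 2.08 in 3F PaS-iPS clones and at -1.19, -1.05, 0.79, -1.33 and 0.37 in 4F PaS-iPS clones, which did not overlap, as for 2.43% of all probes. That log2 difference of 2.09 ± 0.50 had a limma adjusted p of 0.125. Leaving out 4F PaS-iPS clone 3 gave 3 calls and leaving out clone 5 of that group gave 1.

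Whether the effect of the factors differed between sources was tested as an interaction. No member probe was called, beside 0.648% of all probes for PaS against OP, 0.583% for PaS against TTF and 0.00% for OP against TTF. At an unadjusted limma p under 0.05 there were 10, 10 and 0 of 47 member probes, beside 18.9%, 19.3% and 3.72% of all probes. Timp1 came closest among the inhibitors. Its 3F minus 4F difference was 0.28 ± 0.21 in PaS-iPS, -0.59 ± 0.21 in OP-iPS and -0.63 ± 0.21 in TTF-iPS (SE). The limma adjusted p of the interaction was 0.128 for PaS against OP and 0.113 for PaS against TTF. In TTF-iPS the 3F clones were at 4.63, 4.61, 4.78, 4.48 and 4.84 and the 4F clones at 5.13, 5.12, 5.17, 5.37 and 5.72, so every 3F clone lay below every 4F clone, as groups did not overlap for 18.5% of all probes in this source, and the adjusted p was 0.0574.

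Averaged over the 3 sources, a comparison added after the values had been seen, 12 member probes of 7 genes were higher with 3F and 0 were lower. The genes were Mmp15, Mmp17, Mmp23, Mmp24, Adamts2, Adamts5 and Adamts8. Among all probes 4.27% were called higher and 1.07% lower. The largest difference was in Adamts2, from -2.37 to 2.24 with a median of 0.90 over the 15 3F clones and from -6.25 to 0.30 with a median of -1.40 over the 15 4F clones. Its log2 difference was 2.31 ± 0.61 (SE, limma adjusted p = 0.00851). All 4 of its probes were among the 12, but 2 of them passed the filter on dim probes only through the 3F PaS-iPS clones and 1 only through the ES arrays, so that they are no further support. Mmp23 followed with 1.61 ± 0.29 (adjusted p = 0.000482), from 0.44 to 2.08 with 3F and from -2.57 to 1.06 with 4F. Even for Mmp23 the pooled groups overlapped.

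Adamts5 differed by 1.56 ± 0.39 (SE, limma adjusted p = 0.00589), Mmp17 by 1.22 ± 0.26 (adjusted p = 0.00158) and Mmp15 by 1.02 ± 0.16 (adjusted p = 0.000106). Mmp24, a transmembrane protease, differed by 1.08 ± 0.23 (adjusted p = 0.00199) and the proteoglycanase Adamts8 by 1.23 ± 0.42 (adjusted p = 0.0351). For Adamts8 the 4F median was -3.32 and the lowest values, -7.96 and -8.08, were in 4F OP-iPS clones 1 and 3. Without the 3 clones low in Sox2 and Nanog the Adamts8 difference was 0.51 with an adjusted p of 0.0839, and the count of member probes fell from 12 to 6. It was 5 with normexp background correction and 2, for Mmp17 and Mmp23, with the slide as a random block. With that block the differences were 2.07 for Adamts2, 1.35 for Adamts5, 1.12 for Adamts8, 1.07 for Mmp24 and 0.98 for Mmp15. Their limma adjusted p ran from 0.025 for Mmp15 to 0.339 for Adamts8. Adamts8 missed the threshold without any 1 of 10 clones, namely 3F OP-iPS 3 and 4, 3F PaS-iPS 5, 3F TTF-iPS 1 and 4, 4F OP-iPS 1 and 3, 4F PaS-iPS 2 and 4, and 4F TTF-iPS 1. Mmp15 fell below 2-fold without any 1 of 8 clones, namely 3F OP-iPS 2 and 5, 3F PaS-iPS 4, 3F TTF-iPS 4, 4F OP-iPS 3, 4F PaS-iPS 2 and 4, and 4F TTF-iPS 1, and Mmp24 missed without 3F OP-iPS 2. With normexp background correction the difference was 0.26 for Mmp24 (adjusted p = 0.416) and 0.32 for Adamts8 (adjusted p = 0.221). The dimmer Mmp24 probe was below background in all 4F and most 3F clones and was tested only through the ES arrays, so it gives no check.

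Mmp2 was next to the limit, higher with 3F by 0.97 ± 0.25 (SE, limma adjusted p = 0.00775) but under 2-fold. Its activator Mmp14 differed by 0.08 ± 0.12 (adjusted p = 0.676). The 4 inhibitors gave 0.63 for Timp3, 0.27 for Timp4, -0.05 for Timp2 and -0.31 for Timp1, and none was called.

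Markers of other cells were also compared between 3F and 4F. Over 18 fibroblast and feeder cell markers the mean log2 level ran from 0.01 to 2.83 in the 3F clones and from -0.73 to 1.74 in the 4F clones, with means of 1.27 and 0.46, and 16 to 18 of the markers were above background in every clone. Of the 17 tested, Col5a1, Lox and Postn were called higher with 3F over the 3 sources and 0 lower, beside 4.27% and 1.07% of all probes. Of 7 trophoblast markers 3 were called higher and 0 lower, with a mean over the list of -0.65 to 1.60 in the 3F and -2.08 to 1.53 in the 4F clones. Of 5 adipocyte and marrow stroma and of 6 endothelial markers tested 1 each was higher, and of the pluripotent, endoderm, monocyte and macrophage, neutrophil, osteoblast and osteoclast markers 0 were called. Within OP-iPS, where 4 member genes were called, the median log2 difference was 1.29 over the 17 fibroblast and feeder markers, 15 of them positive, and 2.41 over the 9 pluripotent cell markers, with 1 call in each list. There was also 1 call each among 7 trophoblast, 6 osteoblast and 5 adipocyte and marrow stroma markers in OP-iPS. The part of feeder, trophoblast-like or other cells in the protease differences was not tested.

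**Figure D4:**
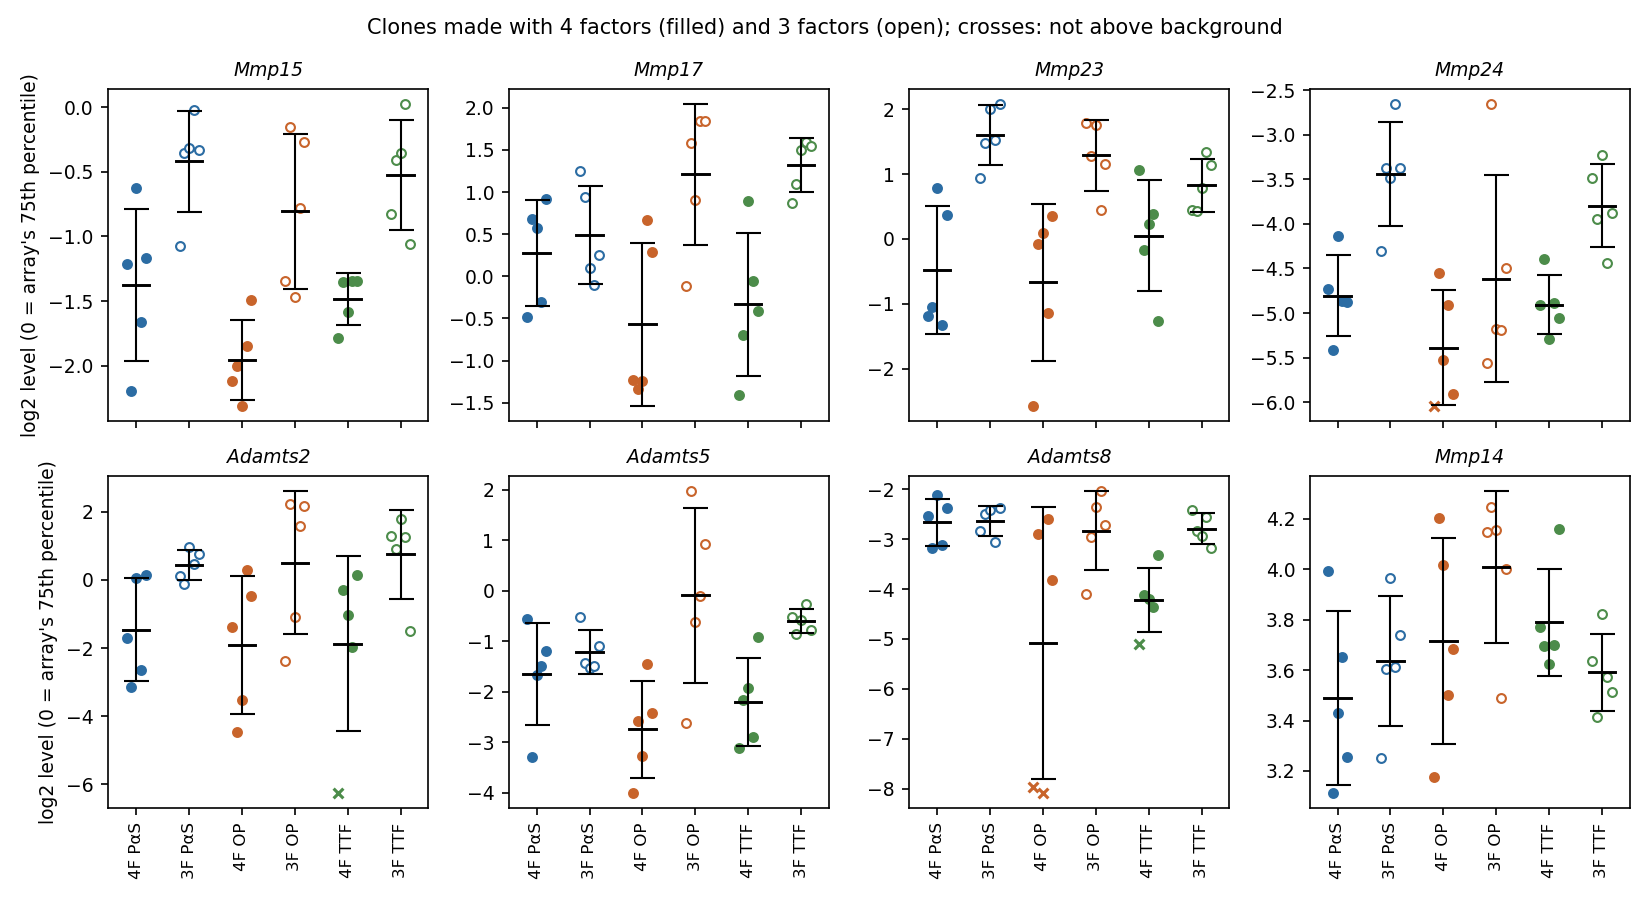
Log2 level (0 is the 75th percentile of the array) of 8 protease genes in clones made with 4 factors (filled points) and 3 factors (open points), by source, with the mean ± SD of 5 clones and crosses where the probe was not well above background. Mmp23 does not overlap between 3F and 4F in PaS-iPS and OP-iPS clones, Mmp17 is higher with 3F in OP-iPS and TTF-iPS clones, and Mmp14 overlaps in every source.

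The source of the clones was the second question of the design. Between the 10 PaS-iPS, 10 OP-iPS and 10 TTF-iPS clones, 0 member probes were called by limma in any of the 3 comparisons. The shares of all probes called higher and lower were 0.815% and 0.789% for PaS-iPS against OP-iPS, 0.192% and 0.308% for PaS-iPS against TTF-iPS, and 0.00362% and 0.0181% for OP-iPS against TTF-iPS. Member probes with an unadjusted p under 0.05 numbered 11, 3 and 8 of 47, beside 21.5%, 16.6% and 10.2% of all probes. Adamts7, which cuts cartilage oligomeric matrix protein, was lower in PaS-iPS than in OP-iPS by 0.72 ± 0.20 (SE, limma adjusted p = 0.0382), and the dimmer Mmp14 probe by 0.55 ± 0.13 (adjusted p = 0.0237), both under 2-fold. Within the 3 slides that held both kinds of clone, Adamts7 differed by -0.86, -0.38 and -0.77.

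The inhibitor Timp4 differed by more than 2-fold between sources but missed the threshold. Among the clones it passed the filter on dim probes only through the TTF-iPS groups, where it was highest, so the difference is no support. Some PaS-iPS and OP-iPS clones were below background, which makes the sizes less certain. Its level was -4.98 ± 0.88 in PaS-iPS, -4.80 ± 0.95 in OP-iPS and -3.29 ± 1.22 in TTF-iPS clones (SD, n = 10). PaS-iPS was below TTF-iPS by 1.70 ± 0.45 on the log2 scale (SE, limma adjusted p = 0.0556) and OP-iPS below TTF-iPS by 1.51 ± 0.45 (adjusted p = 0.248). On the 1 slide with PaS-iPS and TTF-iPS clones the difference was -2.66, of 3 3F PaS-iPS clones from 1 4F TTF-iPS clone, so that source and factor number are mixed there. On the 1 slide with OP-iPS and TTF-iPS clones, all 3F, it was -1.49, of 3 clones from 1. The order between PaS-iPS and OP-iPS was within the spread of the clones. Leaving out 1 clone raised the count from 0 for PaS-iPS against OP-iPS without 4F OP-iPS clone 2 (4 calls), 4F OP-iPS clone 4 (3), 3F OP-iPS clone 2 (1) or 4F PaS-iPS clone 2 (1), and for OP-iPS against TTF-iPS without 4F OP-iPS clone 2 (3). For PaS-iPS against TTF-iPS it gave 1 call without any 1 of 3F OP-iPS clone 1, 3F TTF-iPS clone 5, 4F OP-iPS clone 2, 4F TTF-iPS clone 3, EB-3 or RF8, some of which belong to neither group but share the fit.

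Against the ES arrays the clones stood mostly higher. Of 31 genes 18 were called higher and 4 lower than ES, including 3 of the 4 inhibitors, 10 of 15 Mmp genes and 5 of 12 Adamts genes higher. By probe 26 of 47 were higher and 6 lower, beside 17.2% of all probes higher and 19.0% lower, and the median log2 difference was 1.42 for member probes and -0.11 for all probes. Among genes above background on both ES arrays and higher in the clones, the largest differences were in Timp2, at 5.0 ± 0.68, Adamts2, at 3.43 ± 1.23, and Timp3, at 3.42 ± 0.57 (SE, limma adjusted p = 1.27e-06, 0.0209 and 1.94e-05). For Adamts2 both ES arrays, at -4.41 and -3.65, lay within the range of the clones, and it was not called with EB-3 (adjusted p = 0.0759) or RF8 (adjusted p = 0.175) as the only ES array. Timp3 differed by 5.73 from EB-3 alone and by 1.102 from RF8 alone, where it was not called (adjusted p = 0.0763), and Timp2 by 7.96 and 2.03. Mmp3, Mmp10, Mmp13, Mmp16 and Mmp19 were called higher as well, but were below background in EB-3, so that the size of their mean difference was not measured. Lower in the clones were Adamts8, Adamts19, Adamts20 and Mmp25, the last a lipid-anchored protease of leukocytes, and of these Adamts19, Adamts20 and Mmp25 were below background in most clones or in all. Adamts19, Adamts20 and a dimmer Mmp24 probe passed the filter on dim probes only through the ES arrays, where they were high, and their calls are no support for a difference. Adamts3, a dimmer Adamts10 probe and a dimmer Adamts2 probe were also tested only through those arrays. With a single ES array the main Adamts8 probe was not called (adjusted p = 0.119 with RF8 and 0.0564 with EB-3), and Mmp25 was not called with EB-3 (-0.65, adjusted p = 0.575). With normexp background correction 16 member probes were called in place of 32. These means rest on ES arrays that differed from each other.

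EB-3 and RF8 were far apart for these genes. They are 1 array each, on different slides and in different scan sessions, so line, slide and session cannot be told apart. Over the 49 member probes measured on either array, 57.1% were at least 2-fold higher in RF8 and 8.16% at least 2-fold lower, beside 26% and 13.4% of all probes. Mmp3, a stromelysin that cuts many matrix proteins and activates other metalloproteinases, was at 1.04 in RF8, within the range of 0.04 to 4.07 over the clones, and not well above background in EB-3, at least 199.1-fold lower. Mmp10, its close relative, was at least 18.9-fold lower in EB-3 than in RF8. Mmp16, a transmembrane protease, was at least 14.5-fold lower. Timp2 differed by 5.93 and Timp3 by 4.63 on the log2 scale. Higher in EB-3 by 2-fold or more were Mmp23, by 1.87, Adamts9, by 1.32, and Mmp11, by 1.27.

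Each ES array was therefore set singly against the 30 clones, without a test, counting a gene when the array lay outside the range of the clones and at least 2-fold from their mean. A probe was considered if well above background on that array or on all the clones. A gene that entered through the single array alone can count as higher by that choice, so its count is no support for a difference. EB-3 was past this limit in 15 genes lower and 3 higher of 29, by probe 21 lower and 4 higher of 43, beside 15.1% lower and 19.8% higher among all probes considered. Mmp3 was at least 279.7-fold, Mmp10 at least 27.9-fold and Mmp19 at least 6.33-fold below the clone mean. Timp2 was 249-fold, Timp3 53.1-fold, Adamts5 23.4-fold and Adamts1 8.50-fold below it. The 3 genes above all clones were Mmp11, Adamts8 and Adamts19. Adamts19 was below background in every clone, and its bound was only 1.78-fold, so that a 2-fold difference was not shown.

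RF8 was past the limit in 4 genes lower and 5 higher of 34, by probe 9 lower and 9 higher of 49, beside 10.9% lower and 20.0% higher. With normexp background correction 2 probes in place of 18 were past it. Lower were Mmp23, by 3.62 on the log2 scale, Adamts9, a versican-cutting enzyme, by 3.23, Timp2, by 2.03, and Mmp24, by 1.69. Higher were Mmp25, at -2.09 against -8.05 to -4.60 in the clones, of which 10 were above background, Adamts20, with 2 clones above background, Adamts8, Adamts4 and Adamts19. Of these, Adamts4 alone was above background in all clones, and the others entered only through RF8. In the same limma fit with RF8 as the only ES array 8 member probes were called higher in the clones and 5 lower, beside 12.5% and 16.6% of all probes, and with EB-3 as the only one 21 and 2, beside 17.9% and 18.2%. The spread in these fits comes from the clone groups alone, the lone ES array being assumed to vary like them, and both use the same 30 clones. Higher in both fits were 5 probes, of Timp1, Timp2, Mmp14 and Adamts9, beside 6.98% of all probes, and lower in both was Adamts19, beside 9.57%. For Timp1 and Mmp14 it was dimmer probes that passed against RF8, the brightest giving 0.84 (adjusted p = 0.0544) and 0.57 (adjusted p = 0.144). Adamts19 was below background in all clones and at -5.0 in EB-3 and -2.55 in RF8, so that the ES mean was at least 4.15-fold above the clones. It was tested only through the ES arrays, so its place among the probes lower in both fits is no support for a difference. The same holds for Adamts20 and the dimmer Mmp24 probe in the fit with RF8. Mmp16 was below background in EB-3, and in RF8 it lay within the range of the clones.

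Probes of a gene did not always move together in this comparison. A dimmer Mmp24 probe, above background in 3 of 30 clones, was above background on both ES arrays and dimmer in the clones, by an amount that was not measured, while the brighter one was higher in the clones by 1.24. The 3 probes of Timp1 were all higher in the clones, by 1.13, 1.46 and 1.49.

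Markers of other cells differed between ES arrays and clones as well. The 18 fibroblast and feeder markers had a mean of -4.97 in EB-3, with 10 above background, and 0.27 in RF8, with 18 above background, and 12 of them were called higher in the clones than in ES. Col1a1 was at -4.62 in EB-3 and 3.13 in RF8. All 12 primitive and parietal endoderm markers were called higher in the clones, whose mean over the list ran from 1.52 to 4.62, against -2.42 in EB-3 and -1.38 in RF8. Also called higher were 5 of 7 trophoblast markers, with a mean of -2.08 to 1.60 in the clones against -3.08 and -2.12, as well as 5 of 6 monocyte and macrophage, 3 of 4 neutrophil, 4 of 5 adipocyte and marrow stroma and 1 of 6 endothelial markers tested. Of 6 osteoblast markers 3 were higher and 1 lower, while 2 of 3 osteoclast and 3 of 9 pluripotent cell markers were lower and 0 higher. The lower osteoblast and osteoclast markers, Sp7, Calcr and Tm7sf4, were tested only through the ES arrays, where they were high. Among all probes 17.2% were higher and 19.0% lower. For the culture of the ES lines the study's methods refer to earlier work, so whether they grew on feeders is not given in the sources used here. The part of feeder or other cells in the protease levels was not tested.

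The primary cells were each 1 array, set against the 10 clones made from that source by the same rule without a test. Genes below background in some or all of those clones entered only through the primary array, such as Mmp12 and Mmp8 in TTF cells. Where such genes count as above the clones, the count is no support for a difference. In all 3 sources Timp2, Mmp2, Mmp13, Mmp19, Mmp23, Adamts2, Adamts5 and Adamts10 were past the limit above the clones, and Mmp15 and Mmp17 below them. Adamts5 was at 4.45 in PaS, 4.55 in OP and 2.98 in TTF cells and no clone exceeded 1.97. Adamts2 was at 4.00, 3.75 and 3.19 and no clone exceeded 2.24. Mmp15 was at -3.79, -3.46 and -7.18, the last not well above background, and no clone was under -2.31. Mmp23, which was higher with 3F than with 4F, thus stood higher still in the primary cells, whereas Mmp15 and Mmp17 stood lower there than in the clones. Since the 3 primary samples and EB-3 shared a slide, primary cells and EB-3 may be read side by side without a difference in slide, and Adamts5 was at -5.96, Adamts2 at -4.41 and Mmp15 at -2.53 in EB-3.

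Primary OP cells had 14 of 31 genes above and 6 below, by probe 23 above and 9 below of 48, beside 21.7% above and 17.6% below among all probes. Mmp13, the collagenase of osteoblasts and hypertrophic chondrocytes, was at 6.26 against -6.30 to -2.43 in the OP-iPS clones, a difference of 10.53 on the log2 scale. Mmp13 was at -1.48 in primary PaS and -0.65 in primary TTF cells. Timp3, above background in all 10 clones, exceeded the OP-iPS mean by 4.93. Adamts3, a procollagen protease, and Adamts18 were also past the limit, but were above background in only 2 and 1 of the 10 clones, so that the size of their difference was not measured. Adamts15 was at least 132.7-fold, Mmp10 at least 25.1-fold and Mmp9, a gelatinase, at least 17.2-fold below. The 8 osteoblast markers had a mean of 1.82 in this sample, with all 8 above background, against -2.12 in primary PaS, -3.95 in primary TTF cells and -3.00 to -1.85 in the clones.

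Primary PaS cells had 14 of 29 genes above and 7 below, by probe 26 above and 12 below of 49, beside 18.8% above and 21.2% below. Mmp16 was at 1.45 against -3.75 to -2.41 in the PaS-iPS clones, 4.63 above their mean. Adamts12, which like Adamts7 cuts cartilage oligomeric matrix protein, was at -0.83 and above all 10 clones, of which 6 were above background. Adamts6 was past the limit with 1 of 10 clones above background. The sizes of both differences were not measured. Timp1 was at 8.10 against 4.31 to 5.44, or 8.75-fold higher, while in primary TTF cells it was at 4.08 and not past the limit. Adamts15 was 7.53 and Adamts9 5.16 below the PaS-iPS mean.

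Primary TTF cells had 13 of 32 genes above and 4 below, by probe 20 above and 9 below of 48, beside 22.1% above and 21.8% below. Mmp12 was at 1.69 and not well above background on any of the other 34 arrays, at least 150.6-fold above the TTF-iPS mean. Mmp8 was at -3.78 and likewise above background in this sample alone, at least 3.41-fold higher. Adamts16, at -2.21, and Adamts12, at -2.31, were above all 10 clones, of which 5 were above background for each, and Adamts3 was past the limit with 2 of 10, so that the sizes of these differences were not measured. Below the clones were Mmp15, at least 49.0-fold, Adamts9, by 4.65, Mmp17, by 2.30, and Mmp24, by 2.00. The 10 monocyte and macrophage markers had a mean of 5.57 here, against -4.39 in primary PaS, -5.16 in primary OP cells and -4.49 to -3.47 in the clones, and Ptprc, which encodes CD45, was at 4.14. Of 8 neutrophil markers 4 were above background, with a mean of -6.26. The part of macrophages or other blood cells in the Mmp12 and Mmp8 signals was not tested.

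**Figure D5:**
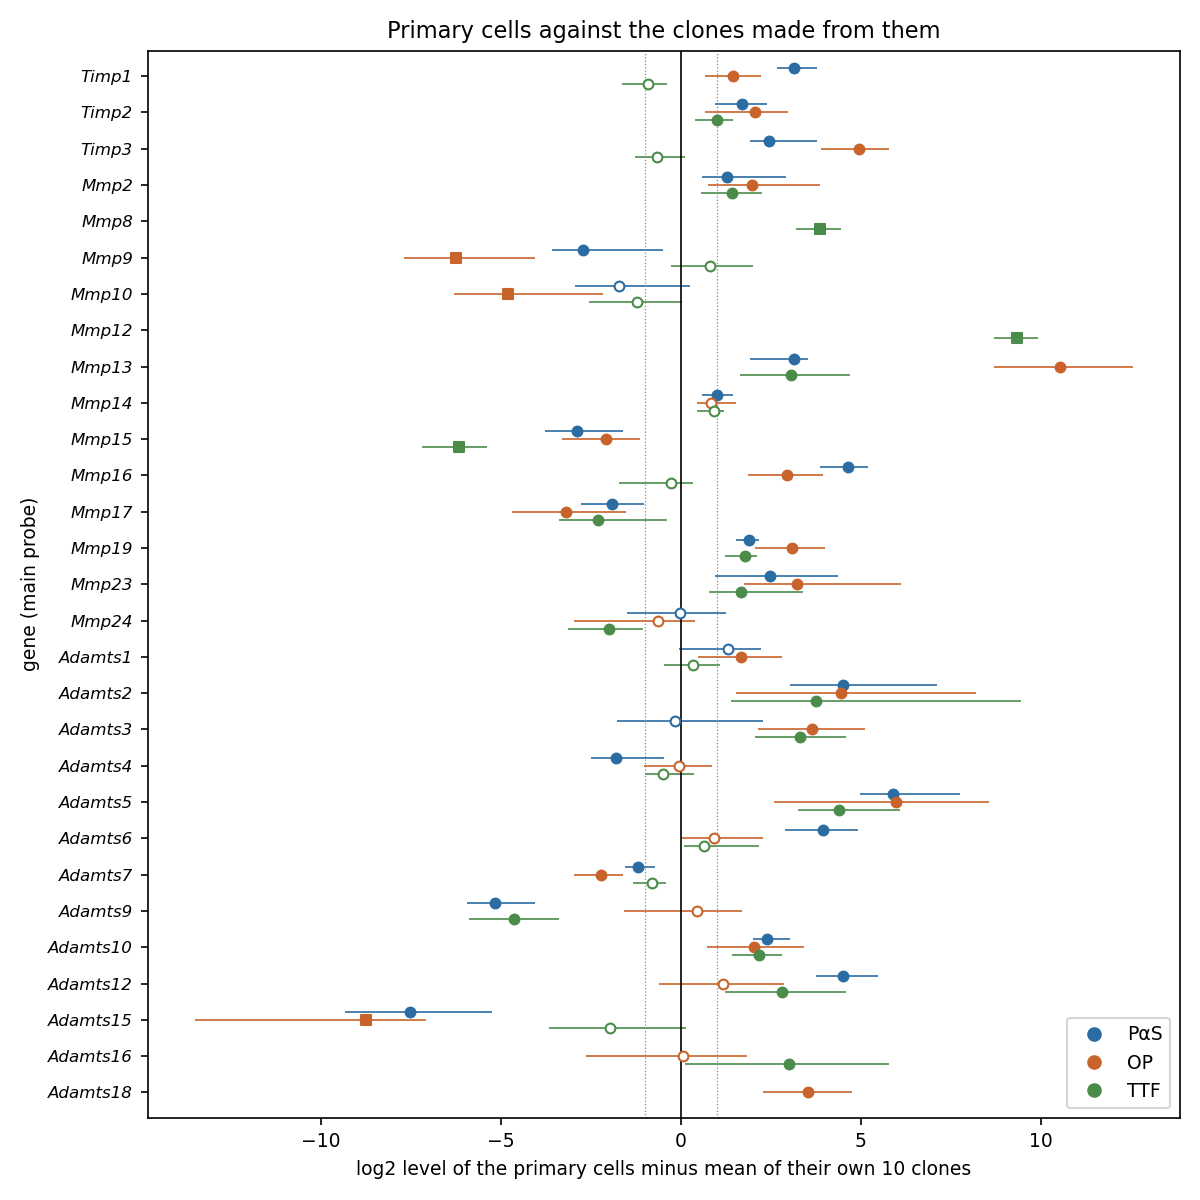
Log2 level of primary PaS, OP and TTF cells minus the mean of the 10 clones of the same source, per gene (rows); bars give the same difference from the highest and the lowest of those clones, filled points are at least 2-fold from the mean and outside the range, squares mark differences with 1 side below background, and each primary point is 1 array. Mmp13 in OP cells (10.53) and Mmp12 in TTF cells lie farthest to the right and Adamts15 in OP and PaS cells farthest to the left.

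Other matrix proteases, activators and inhibitors were listed as 42 further genes, of which 31 were tested. Against ES 24 of the 31 were higher in the clones and 2 lower, beside 17.2% and 19.0% of all probes. Among those higher were Plat, a plasminogen activator, at 3.99, the serine protease Htra1, at 3.80, and the collagen chaperone Serpinh1, at 3.27. Lower in the clones were the peptidase Dpp4 and Tll1, a procollagen protease of the Bmp1 family that was not above background in any clone and was tested only through the ES arrays, so that its call is no support for a difference. Furin, which activates membrane-anchored metalloproteinases, was higher by 2.64. For 3F against 4F, 2 of 31 were called in OP-iPS, 1 in TTF-iPS and 4 over the 3 sources, beside 3.94%, 3.97% and 4.27% of all probes higher. Htra1 (2.11) and Adam8 (1.13) were higher in OP-iPS, Htra3 (2.12) in TTF-iPS, and Htra3 (1.76), Adamtsl4 (1.24) and Htra1 (1.03) were among those higher over the 3 sources. None of these genes was lower with 3F, none was called in PaS-iPS, and none was called between sources.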

How the data were processed

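RNA of each sample was labeled with Cy3 and hybridised to 1 Agilent array. The deposited values are spot intensities in Agilent Feature Extraction output (versions 9.5.3.1, 10.5.1.1 and 10.7.3.1, per the file headers), already background-subtracted by the authors' scanner software, and the authors analysed them further in GeneSpring. Here the processed signals of replicate spots without outlier flags were averaged per probe, taken to log2 and reduced by the log2 of the array's 75th percentile over 41174 gene probes, so the log2 values were computed here from the deposited intensities. One limma fit (limma 3.58.1, R 4.3.3) held the 6 clone groups and the ES group, with 32 arrays. The scaling assumes that the 75th percentile is comparable between samples, and the number of arrays limits the precision.

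A probe not well above background on every array of a group gives only a bound, the mean of the brighter group over the higher of the lowest signal well above background and the dim signal. Named were all genes called, or the 6 largest in each direction where over 10 were called. Also named were 18 fixed genes, and the 5 largest differences in each direction between each primary array and its clones. Of the further list at most 4 in each direction were named, besides Furin, chosen after its value was seen. One gene of that list is not reported here. The members and lists were chosen with earlier results of these data known. Groups came from the sample labels. Alternatives were normexp background correction (offset 50), other filters and scalings, slide or replicate blocks, the compared groups alone, and leaving out each array. Means over sources of 3F against 4F, single ES arrays and leaving out 3 clones were added after seeing the data. Scripts were tested on simulated data. Probe positions are those of the array files (mm7), and promoters are from RefSeq GRCm38.p6. No protein sequences were used.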

Additional observations from a re-analysis of the deposited data

Results flagged for a closer look

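In groups of 5 clones, the highest or lowest clone was set apart when its gap to the next clone was large against the range of the group. Of 141 such checks over the named genes 10 were set apart, where chance gives about 1 in 20. The log2 levels of the clones set apart were as follows. In 4F TTF-iPS clone 5, Mmp3 was at 4.07, Mmp14 at 4.16 and Mmp16 at -1.93, each the highest of its group. In 3F TTF-iPS clone 5, Adamts2 was at -1.51 and Timp3 at 2.80, each the lowest. In 4F PaS-iPS clone 2, Mmp3 was lowest at 1.23 and Mmp13 highest at -3.41. Mmp3 was highest at 2.81 in 4F OP-iPS clone 4, Mmp10 highest at -1.11 in 3F OP-iPS clone 1 and Mmp9 lowest at -2.95 in 3F PaS-iPS clone 4. Mmp3 was thus set apart in all 3 of the 4F groups, by a high clone in OP-iPS and TTF-iPS and by a low clone in PaS-iPS.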

How the results depend on the processing

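Counts of member probes called moved as follows. With normexp background correction the count was 1 for 3F against 4F in PaS-iPS, 16 for clones against ES, 5 for the mean over sources and 2 for RF8. With only probes above background on all clone and ES arrays it was 18 for ES and 5 over sources. With no filter on dim probes it was 1 for PaS-iPS against OP-iPS and 1 for PaS-iPS against TTF-iPS. Without the fold minimum it was 5 for TTF-iPS and 2 for PaS-iPS against OP-iPS. In fits of the compared groups alone it was 0 for OP-iPS, 11 for TTF-iPS and 1 for PaS-iPS against TTF-iPS. The slide as a fixed block gave 0 for TTF-iPS, and as a random block 0 for OP-iPS, 0 for TTF-iPS and 2 over sources. Without the 3 clones low in Sox2 and Nanog it was 0 for OP-iPS, 2 for TTF-iPS and 6 over sources. A 4-fold limit gave 16 for EB-3, 11 for RF8, 25 for primary PaS and 19 for primary TTF cells. The cause of these moves was not tested.

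Leaving out 1 array gave 0 to 3 calls for 3F against 4F in PaS-iPS, 1 to 10 in OP-iPS, 0 to 6 in TTF-iPS and 10 to 13 over sources. It gave 0 to 4 for PaS-iPS against OP-iPS, 0 to 1 for PaS-iPS against TTF-iPS, 0 to 3 for OP-iPS against TTF-iPS and 13 to 33 for clones against ES, with 13 without EB-3. The direction reversed in 3 cases, all against ES, namely a dimmer Adamts2 probe (-0.93) and a dimmer Mmp24 probe (-2.62), both tested only through the ES arrays, and Mmp16 without EB-3 (-0.65, beside a fitted 4.78 without RF8, where EB-3 was below background).

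Clone numbers did not pair the groups: of 75 pairs of same-numbered clones 16 correlated over 0.1, with a median of -0.0004. With the clone number as a replicate block the counts were 0 for 3F against 4F in PaS-iPS, 6 in OP-iPS, 5 in TTF-iPS and 12 over sources, and 0, 1 and 0 for PaS-iPS against OP-iPS, PaS-iPS against TTF-iPS and OP-iPS against TTF-iPS. No paired value was computed for ES. Probes below background on all arrays of a group allow only a bound, and fitted differences that include such a group are not measured sizes. Differences that rest on groups with only some arrays above background are less certain, and 1 array per primary sample and per ES line gives no error.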
